A study of Mus musculus with 14 samples.

Results

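The S100 and annexin genes examined here are 10 genes for calcium-binding proteins, S100a4, S100a6, S100a10, S100a11, S100a13, Anxa1, Anxa2, Anxa3, Anxa5 and Anxa6. They were matched by symbol among 14837 genes of the input RNA, where all 10 were listed, and among 9416, 4527 and 3493 genes with a peak in m6A-RIP, Igf2bp3-RIP and Lin28a-RIP, where 9, 5 and 5 of them were listed. They were chosen by the RNA changes of these input libraries, in particular the fall of S100a4, so the RNA changes of the 10 genes are given as a description and without a test.

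The study compared untreated control MuSCs (muscle stem cells) with Lin28a+ MuSCs, both of mouse skeletal muscle and both cultured before collection. Lin28a+ MuSCs were sorted by the tdTomato reporter of the alleles Lin28a-CreERT2 and LSL-tdTomato, in which a Cre recombinase driven by the Lin28a gene switches on the reporter, so they are cells in which Lin28a was or had been active. The genotype of the control cells is labelled Control and no more. Each group had 2 libraries of input RNA, 2 of m6A-RIP (RNA fragments pulled down by an antibody to the base N6-methyladenosine) and 2 of Igf2bp3-RIP, and Lin28a-RIP had 2 libraries of Lin28a+ MuSCs only. For Lin28a+ MuSCs, both columns of the input table are headed as m6A-RIP and both columns of the m6A-RIP table have the same heading, so no replicate number could be given to these 4 libraries. Across 7943 genes the Lin28a+ input columns correlated with control input at 0.948 and with Lin28a+ m6A-RIP at no more than 0.516.

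Summed values were 4842838 to 6220928 per input library, 21350962 to 31830638 in m6A-RIP, 9215355 to 34142094 in Igf2bp3-RIP and 33908110 to 36610494 in Lin28a-RIP. Levels are given in CPM, counts per 1000000 after TMM scaling within an assay, and changes as log2 fold changes of Lin28a+ minus control with their SE. Nothing says that the libraries came from separate animals, so the spread between them may be technical. Of the marker genes of other cell types, the macrophage list summed to 3.54 to 5.72 CPM with Ptprc at 0 in all 4 input libraries, and the endothelial list to 0.39 to 0.75 CPM. Myod1, which drives the myogenic programme, was at 4651 and 4713 CPM in control MuSCs and at 4723 and 4728 CPM in Lin28a+ MuSCs, whereas Myog, which marks differentiating muscle cells, was at 766 and 775 CPM in control MuSCs and at 2769 and 2809 CPM in Lin28a+ MuSCs. The myogenic list went both ways, with 3 of 10 markers higher and 5 lower, where 28.1% and 28.7% of all tested genes were. In bulk RNA, fewer cells of a type and less RNA per cell cannot be told apart.

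S100 proteins are small EF-hand proteins that bind calcium, mostly as dimers, and then dock to partner proteins. Annexins bind the phospholipids of membranes when calcium rises, and several of them gather at wounds of the muscle fibre membrane. The families meet in complexes, of which the best known holds a pair of S100A10 chains and a pair of annexin A2 chains at the cell surface, and S100A11 pairs with annexin A1 in a like manner. S100a4 is also known as a gene of migrating and fibroblast-like cells.

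The sequence before the RefSeq start (GRCm38.p6) was at hand for 7 of the 10 genes, and 5 of them are shown because their RNA moved in opposite directions. Each line gives the 200 bases before the start, 5′ to 3′ on the strand of the gene, with the letters TATAAA and TGANTCA, on either strand, in capitals.
S100a4, chr3:90603570-90603769, plus strand: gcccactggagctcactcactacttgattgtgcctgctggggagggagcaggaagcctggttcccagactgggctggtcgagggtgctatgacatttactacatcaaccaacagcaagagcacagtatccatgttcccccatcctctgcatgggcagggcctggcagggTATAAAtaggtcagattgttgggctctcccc
S100a6, chr3:90612694-90612893, plus strand: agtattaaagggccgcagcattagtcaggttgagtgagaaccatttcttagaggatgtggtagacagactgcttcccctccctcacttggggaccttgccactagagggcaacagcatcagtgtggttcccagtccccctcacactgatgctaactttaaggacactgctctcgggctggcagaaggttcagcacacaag
S100a11, chr3:93520296-93520495, plus strand: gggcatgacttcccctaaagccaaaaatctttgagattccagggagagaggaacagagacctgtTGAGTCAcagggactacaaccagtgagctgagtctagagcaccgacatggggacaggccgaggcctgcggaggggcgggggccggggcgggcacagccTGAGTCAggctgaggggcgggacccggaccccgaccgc
Anxa1, chr19:20390672-20390871, minus strand: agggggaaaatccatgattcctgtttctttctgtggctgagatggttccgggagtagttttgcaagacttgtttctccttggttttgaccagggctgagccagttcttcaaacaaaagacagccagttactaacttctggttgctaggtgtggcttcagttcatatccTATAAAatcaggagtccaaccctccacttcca
Anxa2, chr9:69453483-69453682, plus strand: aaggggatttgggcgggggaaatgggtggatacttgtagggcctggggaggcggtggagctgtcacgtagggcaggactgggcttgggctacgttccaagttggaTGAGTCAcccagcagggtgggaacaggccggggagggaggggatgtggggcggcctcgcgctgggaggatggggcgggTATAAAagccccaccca

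Of these, S100a4, S100a6 and Anxa1 had lower RNA in Lin28a+ MuSCs, and S100a11 and Anxa2 had higher RNA. In the 250 bases before the start, TATAAA was found at 3 of the 7 genes, with its first letter at -31 for S100a4, -32 for Anxa1 and -17 for Anxa2. The same letters lie in 12.4% of all 32851 such windows. TGANTCA, the letters to which AP-1 binds, was found in 2 of the 7 windows, at -136 and -38 for S100a11 and at -95 for Anxa2, against 6.75% of all windows. GGGCGG, a GC box, was found in the same 2 windows, 3 times in each, against 32.7% of all windows. CANNTG, the E-box to which MyoD-type factors bind, was found in 4 of the 7 windows, against 66.2%. All 4 motifs were searched on both strands and no matches of different motifs overlapped. Anxa3, Anxa6 and S100a10 were not examined in this way.

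Among the S100 genes, the RNA of S100a4 and S100a6 was lower in Lin28a+ MuSCs and that of S100a10 and S100a11 was higher. Of the 10 genes, 5 were listed as higher and 3 as lower at an edgeR adjusted p of 0.05, as were 28.1% and 28.7% of 11317 genes (56.8% in either direction). Since the genes were chosen by these values, the count is a description and no test of them. S100a4, whose protein binds non-muscle myosin and is tied to cell migration, was at 443 and 432 CPM in the control libraries and at 71.5 and 73.0 CPM in the Lin28a+ libraries. This is a 6.05-fold lower level (log2 fold change -2.60, SE 0.03), and the gene ranked 162 of 11317 from the most negative change. S100a6, or calcyclin, a partner of annexins and of the calcyclin-binding protein, was at 689 and 647 CPM in control MuSCs and at 378 and 356 CPM in Lin28a+ MuSCs, a log2 fold change of -0.86 (SE 0.04).

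S100a11, the partner of annexin A1, was at 1998 and 1913 CPM in control MuSCs and at 2522 and 2483 CPM in Lin28a+ MuSCs (log2 fold change 0.36, SE 0.03). S100a10, the S100 chain of the annexin A2 complex, was at 502 and 478 CPM in control MuSCs and at 573 and 553 CPM in Lin28a+ MuSCs (log2 fold change 0.20, SE 0.03). Both genes thus had every Lin28a+ library above every control library, with changes much smaller than that of S100a4. S100a13, which takes part in the release of growth factors that lack a signal peptide, was at 25.8 and 27.2 CPM in control MuSCs and at 24.4 and 22.9 CPM in Lin28a+ MuSCs, a log2 fold change of -0.17 (SE 0.06). RefSeq lists a pseudogene of S100a11, and how reads shared by near-identical copies were counted is not given in the sources used here.

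**Figure D1:**
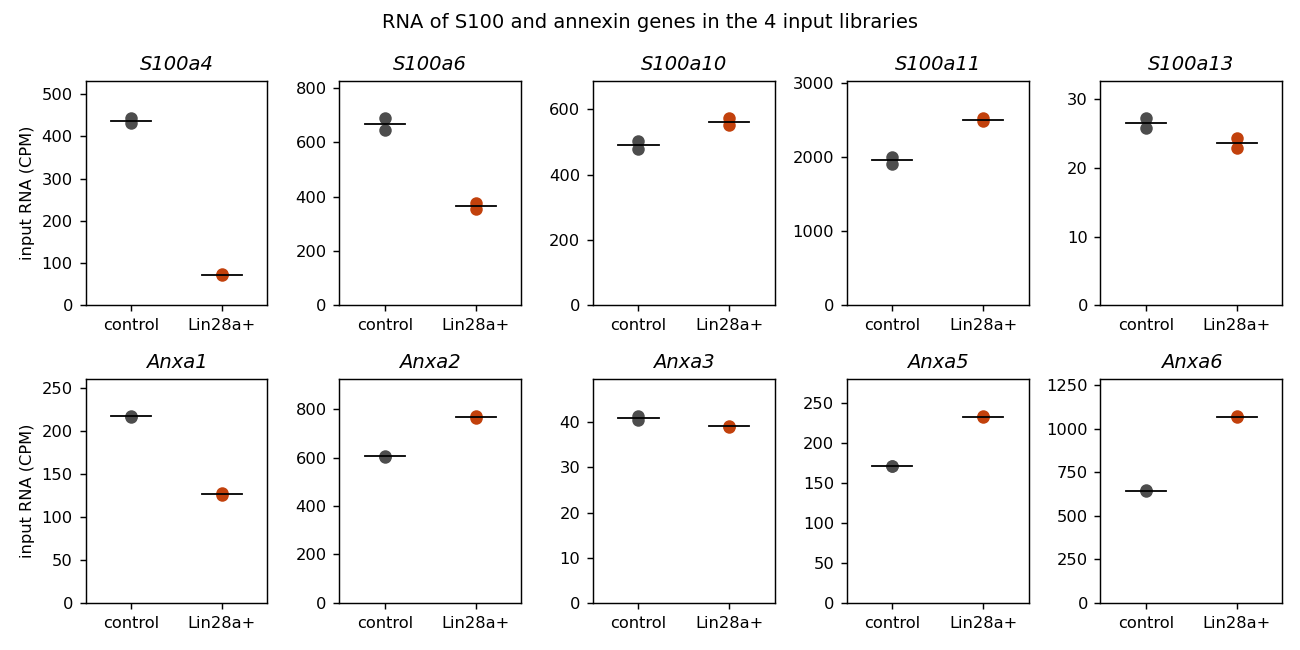
RNA level (CPM, linear axis from 0, with its own range in each panel) of the 10 genes in the 2 control and 2 Lin28a+ input libraries, points for libraries and a line for the mean. In all 10 panels the points of the groups do not overlap, widely for S100a4 (432 and 443 against 71.5 and 73.0) and narrowly for S100a13 and Anxa3.

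Among the annexins, the RNA of Anxa2, Anxa5 and Anxa6 was higher in Lin28a+ MuSCs, that of Anxa1 was lower, and that of Anxa3 had a log2 fold change of -0.07. Anxa6, an annexin with doubled core that forms part of the repair cap on muscle membranes, was at 642 and 647 CPM in control MuSCs and at 1067 and 1073 CPM in Lin28a+ MuSCs (log2 fold change 0.73, SE 0.02). Anxa5, known as a probe for phosphatidylserine on dying cells, was at 171 and 172 CPM in control MuSCs and at 232 and 233 CPM in Lin28a+ MuSCs (0.44, SE 0.03). Anxa2, which binds S100A10, plasminogen activators and actin, was at 603 and 608 CPM in control MuSCs and at 772 and 762 CPM in Lin28a+ MuSCs (0.34, SE 0.02). In each of these 3 genes the groups were apart by far more than the libraries of a group.

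Anxa1, which curbs inflammation and binds formyl peptide receptors, was at 217 CPM in both control libraries and at 128 and 126 CPM in Lin28a+ libraries (log2 fold change -0.78, SE 0.03). Anxa3 was at 40.5 and 41.4 CPM in control MuSCs and at 38.9 and 39.3 CPM in Lin28a+ MuSCs (-0.07, SE 0.05). The partners S100a10 and Anxa2 were therefore both higher, by 1.15 and 1.27 times, whereas S100a11 was higher and Anxa1 lower. All 10 genes had groups that did not overlap, 5 with both Lin28a+ libraries above and 5 below, but so had 43% and 41.8% of all tested genes. With each library left out in turn, S100a4 stayed between -2.62 and -2.58 and Anxa1 between -0.79 and -0.77.

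The S100 genes of chromosome 3 lie in one cluster that is split by genes of the skin barrier. In map order (GRCm38.p6), S100a1, S100a13, S100a16, S100a3, S100a4 and S100a6 lie from 90511034 to 90614414. S100a11 starts 2906081 bases beyond the end of S100a6, and S100a10 starts 28828 bases beyond the end of S100a11. In the first block the log2 fold changes of RNA were -0.92 (SE 0.08) for S100a1, -0.17 for S100a13, -2.78 (SE 0.17) for S100a16, -2.60 for S100a4 and -0.86 for S100a6. S100a16 was at 13.1 and 13.4 CPM in control MuSCs and at 2.36 and 1.43 CPM in Lin28a+ MuSCs, and S100a3, at 1.57 to 1.84 CPM, was too low to be tested. S100a11 and S100a10, beyond the gap, were the S100 genes that were higher.

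S100a1, which is known from heart and skeletal muscle fibres, was at 44.2 and 49.4 CPM in control MuSCs and at 23.6 and 26.0 CPM in Lin28a+ MuSCs. It shares 98 bases with S100a13, next to it, and whether the counting used strand is not given in the sources used here. Between the blocks, Prr9 was at 3.93 and 4.18 CPM in control MuSCs and at 0.197 and 0.409 CPM in Lin28a+ MuSCs, and Tchh had a log2 fold change of -0.39 (SE 0.25) that did not pass the threshold. The remaining genes of the interval, those of the skin barrier among them, were not analysed here.

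**Figure D2:**
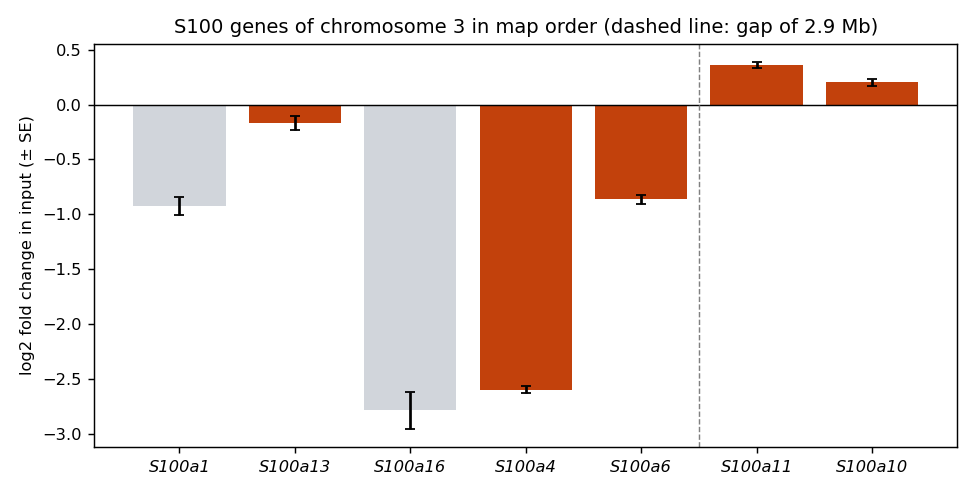
Log2 fold change of input RNA (Lin28a+ minus control, bars; whiskers are the SE) for the 7 tested S100 genes of chromosome 3 in map order, with the 5 genes of the set in dark colour and S100a1 and S100a16 in grey. The 5 genes left of the dashed line run from -2.78 to -0.17 and both genes right of it lie above 0.

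The m6A-RIP libraries had 17 peaks in 9 of the 10 genes, S100a13 being the gene without one. With the peaks of a gene summed, 3 genes were higher and 4 lower past an adjusted p of 0.05 (edgeR's quasi-likelihood test with Benjamini-Hochberg adjustment over 9416 genes), where 66.3% of all genes were past it, 32.5% higher and 33.8% lower. The number of reads of an m6A-RIP peak follows both the amount of RNA and the share of it that is methylated. The m6A-RIP changes therefore carry the RNA changes by which the genes were chosen. Their adjusted p values are no independent test of these genes. S100a4, with 1 peak, was at 133 and 130 CPM in control MuSCs and at 23.6 and 24.1 CPM in Lin28a+ MuSCs, and fell by 2.46 on the log2 scale (SE 0.06, edgeR adjusted p = 3.89e-12). S100a6 was at 730 and 706 CPM in control MuSCs and at 363 and 365 CPM in Lin28a+ MuSCs, and Anxa1 at 234 and 222 CPM against 120 and 118 CPM. The log2 fold changes of these were -0.98 (edgeR adjusted p = 4.61e-10) and -0.94 (edgeR adjusted p = 1.78e-09). In all 3 genes both Lin28a+ libraries were below the control libraries. The share of all genes with groups apart in m6A-RIP is not given here, and 66.3% passed the threshold.

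Of the genes with higher RNA, S100a11 rose in m6A-RIP from 1225 and 1244 CPM to 1554 and 1668 CPM (log2 fold change 0.38, SE 0.04, edgeR adjusted p = 3.00e-06). Anxa6 rose from 22.3 and 23.6 CPM to 37.7 and 38.1 CPM (0.73, SE 0.08, edgeR adjusted p = 3.79e-06). Both had all Lin28a+ libraries above the control libraries, again without a share over all genes beside it. Anxa2 rose from 192 and 204 CPM to 216 and 226 CPM (0.16, SE 0.04, edgeR adjusted p = 0.00697), but this call was lost with total counts in place of TMM (0.06, adjusted p = 0.259) and without control replicate 1 (0.12, adjusted p = 0.0785). S100a10 had control levels of 313 and 326 CPM and Lin28a+ levels of 334 and 338 CPM (0.07, edgeR adjusted p = 0.126). Anxa5 had control levels of 28.9 and 31.6 CPM and Lin28a+ levels of 30.9 and 32.8 CPM, which overlap (0.08, edgeR adjusted p = 0.394). With total counts these 2 values turned to -0.028 and -0.021, a scaling that moved the median of all genes from 0.007 to -0.095.

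**Figure D3:**
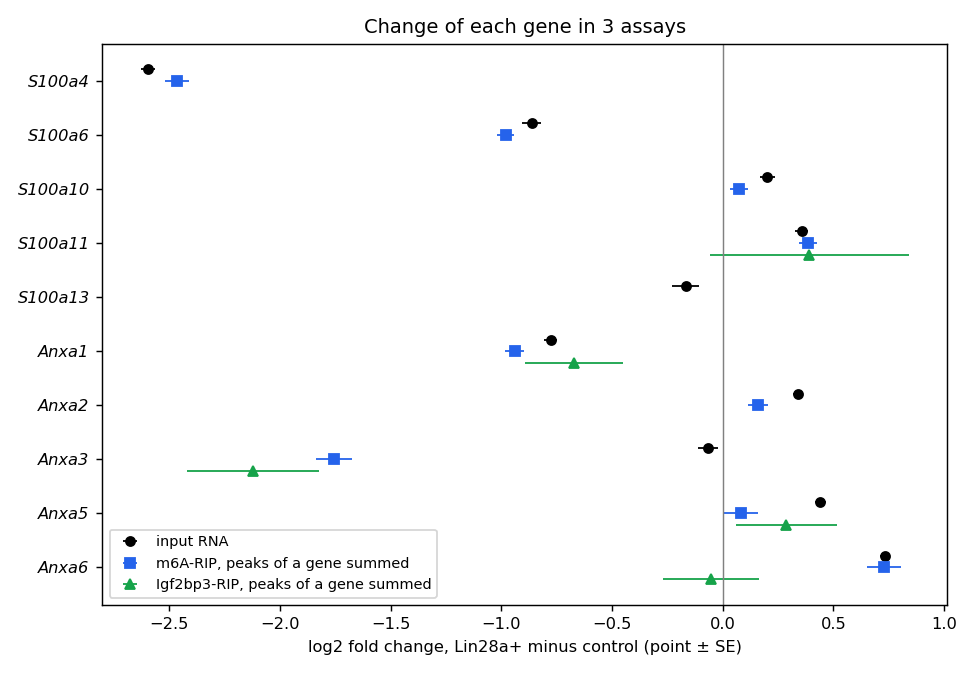
Log2 fold change (Lin28a+ minus control, points; whiskers are the SE) of the 10 genes in input RNA (circles), m6A-RIP (squares) and Igf2bp3-RIP (triangles), with the peaks of a gene summed. Circle and square lie farthest apart for Anxa3, whose RNA changed by -0.07 and whose m6A-RIP changed by -1.76.

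Relative to input, in a model that holds both assays, 7.14% of 7943 genes differed in the change of m6A-RIP and RNA, 4.09% with m6A-RIP the lower. Since this difference contains the RNA change by which the genes were chosen, it is given without a test. It was 0.12 (SE 0.06) for S100a4, -0.13 (SE 0.06) for S100a6, -0.14 (SE 0.05) for S100a10 and 0.01 (SE 0.05) for S100a11 on the log2 scale. For the annexins it was -0.18 (SE 0.06) for Anxa1, -0.20 (SE 0.05) for Anxa2, -0.37 (SE 0.07) for Anxa5 and -0.02 (SE 0.05) for Anxa6. Most genes of the set thus had a signed difference within 0.2 of 0, and Anxa5 had a rise in RNA with little change in m6A-RIP. Anxa3 stood apart with -1.71 (SE 0.11). The model shares 1 spread between the assays, though m6A-RIP varied more between libraries than input. These SE can therefore be too small, since m6A-RIP alone had an SE of 0.08 for Anxa5 and for Anxa6.

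The 2 peaks annotated to Anxa3 did not move together. Peak 1 was at 43.9 and 39.7 CPM in control MuSCs and at 3.99 and 4.81 CPM in Lin28a+ MuSCs, a fall of 9.42 times (log2 fold change -3.24, SE 0.12, edgeR adjusted p = 3.02e-11). Peak 2, annotated to the same transcript, ENSMUST00000199330.4, was at 15.0 and 13.7 CPM in control MuSCs and at 13.9 and 11.9 CPM in Lin28a+ MuSCs (-0.16, SE 0.13, edgeR adjusted p = 0.311). The change of peak 2 was thus near the RNA change of Anxa3, -0.07, and that of peak 1 was not. The m6A-RIP table holds no positions, so neither peak could be placed on the genome.

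**Figure D4:**
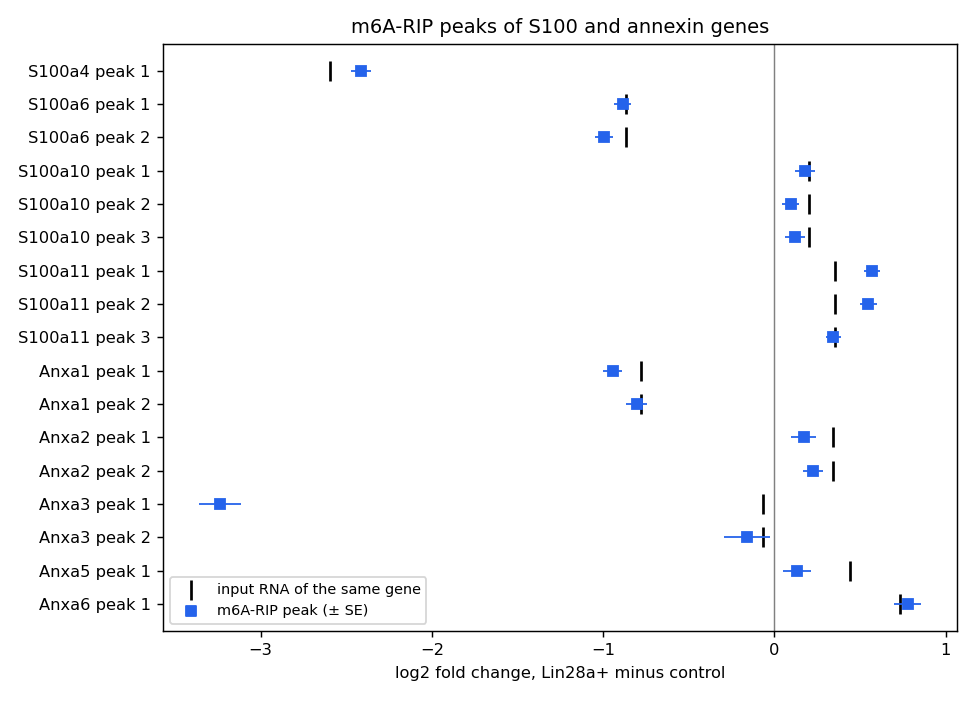
Log2 fold change (Lin28a+ minus control) of the 17 m6A-RIP peaks of 9 genes (squares; whiskers are the SE) beside the change of the input RNA of the same gene (vertical ticks). Anxa3 peak 1, at -3.24, is the square farthest from its tick, whereas Anxa3 peak 2, at -0.16, lies next to it.

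In the other genes the peaks of a gene shared their direction, except that with total counts peaks 2 and 3 of S100a10 turned to -0.06 and -0.033 while its peak 1 stayed above 0. Both peaks of S100a6 fell (log2 fold changes -0.89 and -0.99), as did both of Anxa1 (-0.94 and -0.80). The 3 peaks of S100a11 rose by 0.57, 0.55 and 0.35 on the log2 scale, the first 2 of which were somewhat above the RNA change of 0.36. Of the 3 peaks of S100a10, the first passed the threshold (0.18, edgeR adjusted p = 0.0152), and it did so neither with total counts (0.03, adjusted p = 0.715) nor without control replicate 2 (0.14, adjusted p = 0.117) or without 1 of the Lin28a+ libraries (0.13, adjusted p = 0.133). Of the 2 peaks of Anxa2, the second passed it (0.22, edgeR adjusted p = 0.00329), though not with total counts (0.07, adjusted p = 0.303) or without control replicate 1 (0.15, adjusted p = 0.067). In all, 6 of the 17 peaks were higher and 6 lower, where 30% and 31.8% of all 18881 peaks were (61.8% in either direction).

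In Igf2bp3-RIP, 10 peaks were annotated to 5 of the genes, of which S100a11 was the only S100 gene, and no peak passed the edgeR threshold, where 0.123% of 19465 peaks did. At an unadjusted p under 0.05 in edgeR, 4 of the 10 did, where 5.22% of all peaks did. These 4 were the peaks annotated to Anxa3, all of which lie in the span of a single other gene, Fras1, as given below. By DESeq2 the same 4 peaks were lower at an adjusted p under 0.05. The S100a11 peak was at 409 CPM in control replicate 1 and 564 CPM in Lin28a+ replicate 1, but at 197 CPM in control replicate 2 and 240 CPM in Lin28a+ replicate 2. The groups therefore overlap, with a log2 fold change of 0.41 (SE 0.52, edgeR adjusted p = 1.0).

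The peaks of Anxa1 were at 125 and 177 CPM in control against 85.5 and 107 CPM in Lin28a+ libraries (log2 fold change -0.65, SE 0.31), and at 79.7 and 45.5 CPM against 42.1 and 34.4 CPM (-0.71, SE 0.35). Both had the Lin28a+ libraries below the control libraries, as 16.8% of all peaks had. The peaks of Anxa5 had log2 fold changes of 0.28 (SE 0.28) and 0.32 (SE 0.33), and that of Anxa6, at 81.6 and 92.3 CPM in control MuSCs and at 89.4 and 80.0 CPM in Lin28a+ MuSCs, one of -0.04 (SE 0.27). Relative to the RNA change, Anxa6 had a difference of -1.01 (SE 0.21) and Anxa5 one of -0.38 (SE 0.20) on the log2 scale, in a model in which 1.05% of 3922 genes differed. Neither gene was among these in edgeR. The model shares 1 spread with input, which varied far less. These SE can therefore be too small, since Igf2bp3-RIP alone, with peaks summed, had an SE of 0.22 for Anxa6 and 0.23 for Anxa5. Anxa6 RNA was higher in Lin28a+ MuSCs, while the Igf2bp3-RIP levels of its peak overlapped between the groups.

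The 4 Igf2bp3-RIP peaks annotated to Anxa3 had the lowest log2 fold changes of the set, from -2.29 to -2.08. Summed, they were at 44.7 and 66.0 CPM in control MuSCs and at 13.96 and 11.59 CPM in Lin28a+ MuSCs (-2.12, SE 0.30, edgeR adjusted p = 0.0748, where 0.287% of 4527 genes passed). The call depended on the test, since it passed with DESeq2 (adjusted p = 1.53e-07), without control replicate 1 (-2.37, adjusted p = 0.00134), without control replicate 2 (-1.81, adjusted p = 0.028) and without Lin28a+ replicate 1 (-2.24, adjusted p = 0.0137). In these peaks the Lin28a+ libraries were below the control libraries in every case, as in 16.8% of all peaks.

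None of the Igf2bp3-RIP and Lin28a-RIP peaks annotated to Anxa3 lies in Anxa3. The gene spans chr5:96793385-96845968 (GRCm38.p6), and the 4 Igf2bp3-RIP peaks and 11 Lin28a-RIP peaks lie 8761 to 64787 bases before its first base. All 15 lie within the span of Fras1, chr5:96373777-96784733, which ends 8651 bases before Anxa3 begins and encodes an extracellular matrix protein of basement membranes. Of all peaks, 80.6% in Igf2bp3-RIP and 86.1% in Lin28a-RIP overlap the gene to which they are annotated, and so did all 19 remaining peaks of the 10 genes. The build of the deposited positions is not named for these tables, and the sources list mm10 and GRCh38.

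The RNA of Fras1 fell from 53.2 and 50.7 CPM in control to 10.0 and 9.40 CPM in Lin28a+ libraries, a log2 fold change of -2.41 (SE 0.07), while that of Anxa3 changed by -0.07. The Igf2bp3-RIP change of the peaks annotated to Anxa3, -2.12, was thus near the RNA change of the gene that holds them. Fras1 itself had 0 peaks in the m6A-RIP and Igf2bp3-RIP tables and 2 in the Lin28a-RIP table. The values listed for Anxa3 in Igf2bp3-RIP and Lin28a-RIP are therefore those of peaks in the span of Fras1, and which gene m6A-RIP peak 1 lies in was not tested.

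**Figure D5:**
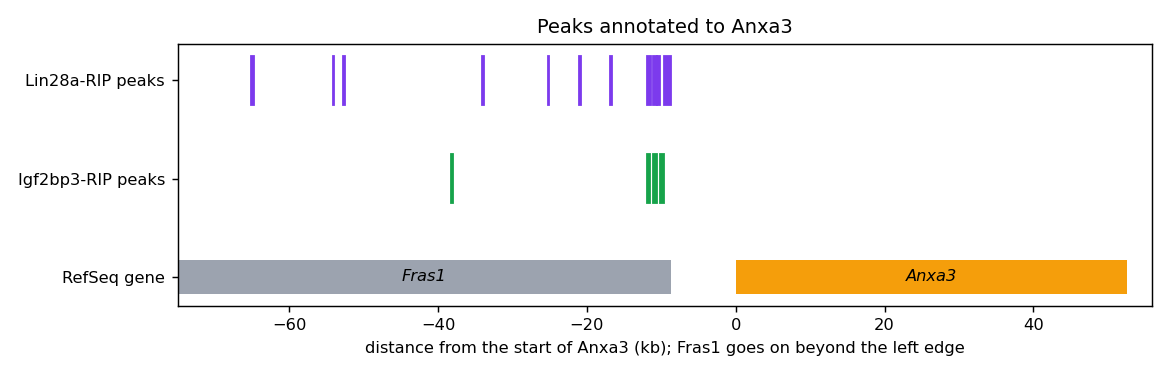
Places of the Igf2bp3-RIP peaks (4, middle row) and Lin28a-RIP peaks (11, top row) annotated to Anxa3, as distance in kb from the first base of Anxa3, above the RefSeq spans of Fras1 and Anxa3. All 15 peaks stand over Fras1 and none over Anxa3.

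In Lin28a-RIP, which has no control libraries, none of the 5 S100 genes had a peak, whereas Anxa1, Anxa2 and Anxa5 had 1 each and Anxa6 had 10. For lack of counts outside peaks, no limit can be set for the S100 genes. The peaks of Anxa6 lay between chr11:54998600 and 55011983 and ranged from 61.1 CPM to 138 CPM in library 1 and from 64.3 CPM to 121 CPM in library 2. Summed, they came to 949 and 929 CPM. The single peaks of Anxa1, Anxa2 and Anxa5 were at 45.9 and 48.2, at 70.7 and 70.8, and at 35.1 and 32.8 CPM.

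Set against the input RNA of Lin28a+ MuSCs, the log2 ratio of Lin28a-RIP to input was -0.20 for Anxa6, -1.42 for Anxa1, -2.75 for Anxa5 and -3.43 for Anxa2, where the median of 3013 genes with a peak was 1.71. Anxa2 had a lower ratio than all but 1.19% of these genes and Anxa6 than all but 23.8%. With the highest peak of each gene alone, Anxa6 had a ratio of -3.08 and thus came below Anxa1 and Anxa5, whose single peaks are the same in both. The ratio falls with fewer or narrower peaks, and genes without a peak have none, so it ranks the genes with a peak and no others. For the 11 peaks annotated to Anxa3 the ratio to Anxa3 RNA was 0.46, and their levels were 57.1 and 52.0 CPM.

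Lin28a-RIP and Igf2bp3-RIP peaks overlapped in Anxa1, Anxa5 and Anxa6, and 2 of the 4 Igf2bp3-RIP peaks annotated to Anxa3, in the span of Fras1, shared 304 and 467 bases with Lin28a-RIP peaks. In Anxa1 they shared 293 bases of chr19:20373590-20373904, close to the gene's border at 20373434, and in Anxa5 205 bases of chr3:36449311-36449590, close to the border at 36448923. In Anxa6 the single Igf2bp3-RIP peak, chr11:55005190-55005389, lay whole within 1 of the 10 Lin28a-RIP peaks. Anxa1 and Anxa5 have their start at the opposite border, on the minus strand, so their shared peaks lie near the end of the gene.

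Of the 3 tested annexins outside the set, Anxa4 and Anxa7 had lower RNA in Lin28a+ MuSCs and 0 had higher RNA, where 28.7% and 28.1% of all tested genes did. Anxa4 was at 62.0 and 61.6 CPM in control MuSCs and at 53.1 and 54.2 CPM in Lin28a+ MuSCs (log2 fold change -0.21, SE 0.04), and Anxa7 at 33.2 and 31.7 CPM against 25.2 and 24.7 CPM (-0.38, SE 0.06). With total counts, 1 of these passed the threshold. Anxa11 was at 93.8 and 90.8 CPM in control MuSCs and at 88.8 and 89.1 CPM in Lin28a+ MuSCs (-0.05, SE 0.04), and Anxa8 and Anxa9, below 1 CPM in every library, were not tested. In m6A-RIP, S100a16 fell from 18.7 and 16.6 CPM to 2.52 and 1.70 CPM (log2 fold change -3.09, edgeR adjusted p = 3.74e-08), and Anxa4 had a log2 fold change of -0.22 (edgeR adjusted p = 0.0988).

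Of 19 tested genes of membrane repair, which act with annexins at wounds of the plasma membrane, 10 were lower and 3 higher, where 28.7% and 28.1% of all tested genes were, with a median log2 fold change of -0.24 beside 0.01 over all tested genes. Under a filter of 10 or more counts per library, 8 of 17 were lower and 1 was higher. Trim72 (MG53), which brings vesicles to the wound, was at 87.9 and 79.8 CPM in control MuSCs and at 29.9 and 24.1 CPM in Lin28a+ MuSCs (-1.63, SE 0.10), and Cav1, at 0.613 to 2.62 CPM, had -1.76 (SE 0.30). The higher genes had small changes, 0.37 (SE 0.03) for Capns1, the small calpain subunit, and 0.19 (SE 0.05) for Ehd1. Ahnak, a giant scaffold that binds the S100A10 and annexin A2 complex and was named after its values were seen, was at 821 and 835 CPM in control MuSCs and at 360 and 353 CPM in Lin28a+ MuSCs (-1.22, SE 0.02), while S100a10 and Anxa2 were higher. In m6A-RIP, 7 of the 15 tested were lower and 3 higher, where 33.8% and 32.5% of all genes were, and Ahnak had a log2 fold change of -1.30 (edgeR adjusted p = 9.00e-12).

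Of the genes of plasminogen activation at the cell surface, the process served by S100A10 and annexin A2, 1 of 9 tested was higher and 4 were lower in input (28.1% and 28.7% of all tested genes), with a median of -0.50. With total counts 2 were higher, and with at least 10 counts in every library 5 were lower. The higher one was Eno1, a glycolytic enzyme that also binds plasminogen, at 486 and 507 CPM in control MuSCs and at 879 and 891 CPM in Lin28a+ MuSCs (log2 fold change 0.83, SE 0.03). Serpine2, an inhibitor of serine proteases, had the largest fall in input (-1.28, SE 0.06) and a log2 fold change of 0.37 (SE 0.15, edgeR adjusted p = 0.049) in m6A-RIP. Plau, which encodes urokinase, was at 243 and 232 CPM in control MuSCs and at 256 and 246 CPM in Lin28a+ MuSCs (0.08, SE 0.04) and did not pass the threshold. Plau was named after its values were seen.

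Of the receptors and partners of S100 proteins, 3 of 11 tested were higher and 6 lower (28.1% and 28.7% of all tested genes), with a median of -0.35. Sdc4 (-1.10, SE 0.04) and Tlr4 (-0.88, SE 0.10) fell most, and Myl12a (0.42, SE 0.03) and Sugt1 (0.30, SE 0.05) rose most. Ager, the receptor RAGE, was at 0 in 3 of the 4 input libraries and at 0.197 CPM in the other. Of the prostaglandin and phospholipase genes listed with annexin A1, all 3 tested were lower, Ptgs1 from 9.18 and 11.1 CPM to 0.786 and 1.23 CPM (-3.32, SE 0.23) and Pla2g4a from 19.5 and 16.4 CPM to 8.06 and 8.59 CPM (-1.10, SE 0.12). In m6A-RIP, Ptgs1 had 7.19 and 6.28 CPM in control against 8.04 and 7.93 CPM in Lin28a+ libraries (0.24, edgeR adjusted p = 0.221), and Pla2g4a had a log2 fold change of 0.13 (edgeR adjusted p = 0.682). Of the other EF-hand genes, 7 of 16 were higher and 4 lower (28.1% and 28.7% of all tested genes) with a median of 0.19, led by Rcn3 (1.89, SE 0.11) and Efhd2 (0.79, SE 0.03) among the higher and Nucb2 (-0.87, SE 0.14) and Rcn1 (-0.38, SE 0.03) among the lower.

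Since S100a4 also marks fibroblast-like cells, the marker lists of such cells are given beside it. Of 10 fibro-adipogenic progenitor markers, 7 were listed, summing to 166 CPM in both control and to 151 and 153 CPM in Lin28a+ libraries, with Pdgfra at 0.187 and 0.161 CPM in control and at 0 in both Lin28a+ libraries. Most of these sums was Col3a1, at 121 and 120 CPM in control and at 116 and 117 CPM in Lin28a+ libraries. The members of the list went both ways, since Ly6a was higher (3.93 and 4.51 against 13.6 and 12.5 CPM) and Fbn1 lower (40.5 and 38.8 against 18.3 and 21.9 CPM). Of 8 smooth muscle or pericyte markers, 6 were listed and summed to 5878 and 5841 CPM in control MuSCs and to 7714 and 7696 CPM in Lin28a+ MuSCs. Most of this was Acta2, at 5438 and 5401 CPM in control and at 7439 and 7421 CPM in Lin28a+ libraries. Acta2 was higher (log2 fold change 0.46) and Tagln lower (-1.92), and Myh11 was at no more than 0.161 CPM. The tenocyte list, with 2 of 5 genes, summed to 68.4 and 68.9 CPM in control MuSCs and to 142 and 146 CPM in Lin28a+ MuSCs, and the Schwann cell list, nearly all of it Erbb3, to 80.4 and 81.1 against 126 and 128 CPM. Of the 10 myogenic markers, 3 were higher and 5 lower, where 28.1% and 28.7% of all tested genes were. The lower ones were Vcam1 (log2 fold change -1.93), Myf5 (-1.21), Musk (-1.14), Chrna1 (-0.92) and Des (-0.53), and the higher ones Myog (1.86), Cdh15 (0.77) and Pax7 (0.36). The part of these shifts in the changes of the S100 and annexin genes was not tested.

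The genes whose levels over the 4 input and 4 m6A-RIP libraries ran most like those of S100a4 were Dclk1, Cavin4 and Ndn, by the Euclidean distance of centred log2 CPM over 7408 genes. The distances were 0.19, 0.22 and 0.27. Cavin4, a muscle protein of caveolae, was at 338 and 334 CPM in control MuSCs and at 63.3 and 55.0 CPM in Lin28a+ MuSCs. Dclk1, a kinase that binds microtubules, was at 51.3 and 52.0 CPM against 7.47 and 7.77 CPM, and Ndn, or necdin, at 89.7 and 94.8 CPM against 16.9 and 13.9 CPM. For Anxa2 the nearest were Dhx30, Dbi and Ciz1, at distances of 0.05, 0.06 and 0.06. Of these Dbi, which binds acyl-CoA, changed by 0.34 (SE 0.04) in input, while Dhx30 (0.37, SE 0.07) and Ciz1 (0.38, SE 0.11) did not pass the threshold.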

How the data were processed

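RNA-seq of input RNA and RIP-seq with antibodies to m6A, Igf2bp3 and Lin28a covered 14 libraries of cultured mouse MuSCs. Reads were trimmed and aligned with Hisat2 2.0.4, and MACS2 (version given as 1.4.3) is named for m6A peaks, per the study's methods and the submitters' processing notes, which list GRCh38 and mm10. The program that counted reads, the caller of the other peaks and pooling of replicates are not given in the sources used here. The deposited input values are estimated counts for each gene, unscaled and partly with decimals, and were rounded before tests. The deposited RIP values are raw counts for each peak. Gene symbols came from Ensembl and Entrez identifiers, and RefSeq GRCm38.p6 gave spans and promoter sequences.

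The main tool was edgeR 4.0.16 in R 4.3.3 (quasi-likelihood test, TMM factors, filterByExpr, Benjamini-Hochberg adjustment, threshold 0.05) across whole tables, after a check on simulated data. RIP relative to input was an interaction term in 1 model of both assays, with a spread shared between them. The m6A-RIP and Igf2bp3-RIP were tested per peak and with the peaks of a gene summed. Lin28a-RIP was scaled by total counts and set against input on a log2 scale after 1 CPM was added. Alternatives were DESeq2 1.42.0, other scalings, other filters on low counts and each library left out. With 2 libraries per group, errors rest on a spread shared among genes. Replicates of every group differed by more than sampling noise (chi-square per degree of freedom 1.67 to 36.4).

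The 10 genes and the gene lists were chosen with earlier results of these data known. Named are all 10 genes, every other S100 or annexin gene with a value, the 2 largest rises and falls past the threshold in each further list, and the 3 genes with profiles nearest to S100a4 and to Anxa2. Marker genes and others are named as controls or were chosen after their values were seen. Lin28a itself was not analysed here. A result that this rule would name is not reported here.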

Additional observations from a re-analysis of the deposited data

How the results depend on the processing

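The RNA calls of the 10 genes and their directions were the same under every alternative run, and so were the m6A-RIP calls per gene of S100a4, S100a6, S100a11, Anxa1, Anxa3 and Anxa6. With total counts in place of TMM, m6A-RIP changes turned to -0.021 for Anxa5 (-0.022 for its peak), to -0.028 for S100a10 and to -0.060 and -0.033 for its peaks 2 and 3. The Igf2bp3-RIP change of Anxa1 relative to input turned to 0.0090, and the m6A-RIP median of the other EF-hand genes to -0.036. With at least 10 counts in every library, m6A-RIP of Anxa6 relative to input turned to 0.0092 and the fibro-adipogenic median in input to -0.069. The causes were not tested.

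Igf2bp3-RIP calls were the least stable. Of the 10 peaks, 0 were lower in the edgeR test, 4 with DESeq2, and 0 to 4 with a library left out. Of the 5 genes the numbers were 0, 1, and 0 to 1. Over all peaks, edgeR called 24 of 19465, DESeq2 262, and edgeR with at least 10 counts in every library 0. Over all genes, edgeR called 13 of 4527 and DESeq2 115. Relative to input, 1 gene was lower in Igf2bp3-RIP, 2 with DESeq2 and 0 to 2 with a library left out. The 1 gene was Anxa3, whose peaks lie in the span of Fras1, and the 0 came from leaving out any of the 4 input libraries, when edgeR called no gene at all. Relative to input, 3 genes were lower in m6A-RIP and 1 with DESeq2. Both counts contain the RNA change by which the genes were chosen, so they describe the settings and test nothing.

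With a library left out, the change of the S100a11 peak in Igf2bp3-RIP ran from -0.34 to 1.03 and its value per gene from -0.23 to 0.93. That of the Anxa6 peak ran from -0.13 to 0.078, and per gene from -0.20 to 0.11. Relative to input, m6A-RIP ran from -0.059 to 0.016 for Anxa6 and from -0.036 to 0.064 for S100a11, and Igf2bp3-RIP from -0.25 to 0.041 for Anxa1 and from -0.81 to 0.34 for S100a11. With the highest peak of a gene alone, the median Lin28a-RIP log2 ratio of the 5 genes moved from -1.42 to -2.75, that of Anxa6 from -0.20 to -3.08, and that of Anxa3 turned to -1.87.

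The replicate numbers of Igf2bp3-RIP mark no shared batch in the labels. The differences between replicates 2 and 1 correlated at 0.703 between the groups over 19465 peaks, with 2 pairs. With the replicate number as a block, 6 of the 10 peaks and 2 of the 5 genes were lower, Anxa1 (-0.67, edgeR adjusted p = 0.0165) and Anxa3 (-2.11, edgeR adjusted p = 0.000357). The block called 1988 of all 19465 peaks and 374 of all 4527 genes, in either direction. No paired analysis was possible for input, m6A-RIP and RIP relative to input because the Lin28a+ input columns are headed with m6A-RIP names, whose numbers may not be those of the input libraries, and both Lin28a+ m6A-RIP columns have the same heading.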
